A study of Mus musculus with 12 samples.

Results

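The 9 genes examined here direct development of the nervous system, and the question was whether open chromatin lies at their promoters in blood cells, where they serve as off-lineage controls. They are Fezf2, Pax6, Sox1, Sox2, Neurog1, Neurog2, Olig2, Nkx2-2 and Otx2, and they were chosen by name. The master peak-list, 84243 regions of accessible chromatin, names 19 of its peaks after 6 of these 9 genes, where 75.5% of all protein-coding genes had at least 1 peak. Pax6 had 7 peaks, Neurog2 had 5, Fezf2 had 3, Olig2 had 2, and Neurog1 and Sox2 had 1 each. Sox1, Nkx2-2 and Otx2 had 0 by name, although each had 2 or 3 when peaks were given to the nearest protein-coding TSS. The share of all genes was counted by name only, so those 2 or 3 have no background here. A peak centre lay within 500 bp of a transcription start site (TSS) at 3 of the 9 genes, Pax6, Sox2 and Neurog2, against 60.3% of all protein-coding genes.

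Accessibility was measured by ATAC-seq, in which a transposase inserts sequencing adapters into exposed DNA. The samples were 12, with 2 replicates of each of 6 cell types sorted from wild-type C57BL/6 mice of 8 to 12 weeks. Hematopoietic stem cells (HSCs), megakaryocyte progenitors (MkPs), erythroid progenitors (EPs), granulocyte/macrophages (GMs) and B cells came from bone marrow, and T cells, by their labels, from thymus. The list pools all of them and does not record in which cell type or replicate a peak was found, so a listed peak was called in at least 1 cell type and the spread over replicates cannot be given. Depth is unknown, and a gene without a peak is a gene where none passed the filters, not a gene shown to be closed. Expression was not measured in these files, so whether the 9 genes were silent was not checked here.

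These genes encode transcription factors that act in neural precursors. In the embryo, Sox1 and Sox2 mark the neural plate, Otx2 the future forebrain and midbrain, and Pax6 the eye and the dorsal forebrain. Neurog1 and Neurog2 start neuronal differentiation, Olig2 and Nkx2-2 pattern the ventral spinal cord and specify oligodendrocytes, and Fezf2 specifies projection neurons of the deep cortex. Such genes often have promoters in CpG islands, stretches where CpG dinucleotides have escaped the loss seen elsewhere in the genome, and in cells where they are silent these islands are known targets of Polycomb repression. CpG islands are also known to be accessible at most active genes, which makes the promoters of these genes a useful contrast.

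The sequences below show what the accessible promoters look like, beside the promoter of Sox1, where no peak was found. They are mm10 sequence of the plus strand, which is the coding strand of all 4 genes, taken outside exons, with every CpG in capitals. The first is the DNA just upstream of the Sox2 TSS (chr3:34649695-34649994), the next is from a promoter peak of Pax6 (chr2:105682163-105682462), the third is the intron of Neurog2 under its promoter peak (chr3:127633458-127633727), the fourth is an upstream Neurog2 peak on a CpG island (chr3:127625317-127625616), and the last is the DNA just upstream of the Sox1 TSS (chr8:12395269-12395518).
Sox2 upstream: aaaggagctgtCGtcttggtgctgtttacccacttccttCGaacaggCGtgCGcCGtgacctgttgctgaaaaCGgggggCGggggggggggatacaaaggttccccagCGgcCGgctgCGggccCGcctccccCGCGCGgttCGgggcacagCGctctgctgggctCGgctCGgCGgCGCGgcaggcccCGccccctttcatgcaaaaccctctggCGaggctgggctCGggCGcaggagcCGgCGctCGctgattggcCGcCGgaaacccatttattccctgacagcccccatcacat
Pax6 downstream promoter: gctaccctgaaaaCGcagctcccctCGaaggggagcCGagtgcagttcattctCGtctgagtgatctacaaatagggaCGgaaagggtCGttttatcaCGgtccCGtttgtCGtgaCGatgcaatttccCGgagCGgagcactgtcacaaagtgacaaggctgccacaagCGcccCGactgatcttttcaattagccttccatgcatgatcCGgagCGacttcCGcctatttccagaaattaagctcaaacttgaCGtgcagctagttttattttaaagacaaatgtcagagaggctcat
Neurog2 intron: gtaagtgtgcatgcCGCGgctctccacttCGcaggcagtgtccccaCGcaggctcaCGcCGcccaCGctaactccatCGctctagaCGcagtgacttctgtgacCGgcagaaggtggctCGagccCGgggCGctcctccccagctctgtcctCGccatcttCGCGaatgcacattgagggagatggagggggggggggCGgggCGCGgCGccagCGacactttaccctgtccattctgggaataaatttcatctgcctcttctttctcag
Neurog2 upstream peak: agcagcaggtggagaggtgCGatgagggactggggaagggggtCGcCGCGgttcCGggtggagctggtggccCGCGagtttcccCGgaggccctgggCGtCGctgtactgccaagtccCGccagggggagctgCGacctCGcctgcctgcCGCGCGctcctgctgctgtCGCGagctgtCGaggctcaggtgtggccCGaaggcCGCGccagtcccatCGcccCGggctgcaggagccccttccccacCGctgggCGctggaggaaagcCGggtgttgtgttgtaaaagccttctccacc
Sox1 upstream: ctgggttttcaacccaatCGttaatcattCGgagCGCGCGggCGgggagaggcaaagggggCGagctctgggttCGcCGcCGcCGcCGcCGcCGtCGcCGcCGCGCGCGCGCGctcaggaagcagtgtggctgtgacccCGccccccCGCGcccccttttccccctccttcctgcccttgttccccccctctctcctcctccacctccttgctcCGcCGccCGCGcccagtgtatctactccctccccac
The stretch without a peak, from Sox1, held 29 CpGs in 250 bp (CpG observed/expected 0.99), and that of Sox2 held 30 in 300 bp (0.85). The Pax6 stretch held 18 in 300 bp (0.97). The observed/expected value divides the number of CpGs by the number that the C and G content would give. The Neurog2 intron held 21 in 270 bp (0.80) and the upstream Neurog2 stretch 27 in 300 bp (0.73). Of the 5 stretches, that of Sox1 had the highest observed/expected value, but the stretches differ in length and in place. In the matched window of 500 bp on each side of the RefSeq Select TSS, Sox1 had 0.79. Sox2 (0.82) and Neurog2 (0.85) were above it in that window, and Pax6 (0.73) was below.

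Sox2, which encodes a factor shared by neural precursors and pluripotent cells (Entrez 20674), lies on the plus strand of chromosome 3 from 34649995 to 34652461. Its single peak (chr3:34649641-34650139) was centred 105 bp upstream of the TSS and was annotated as promoter. The position also lies in an intron of Sox2ot, the long non-coding RNA that spans Sox2 on the same strand. This was the only peak within 250 kb of the TSS. The next centres were 453431 bp downstream, assigned to Mir6378, and 568727 bp upstream, at the promoter of Dnajc19. By the basal plus extension rule, which gives a gene 2 kb upstream, 1 kb downstream and the DNA up to its neighbours or 1 Mb, Sox2 commanded 1.57 Mb with 5 peaks.

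Pax6 encodes a paired and homeodomain factor (Entrez 18508) on the plus strand of chromosome 2, from 105668896 to 105698410, with 4 curated TSSs. Of its 7 peaks, 4 were promoter peaks and covered 3 of these TSSs. The TSS at 105675744, that of the RefSeq Select transcript, had a peak (chr2:105675173-105675671) centred 322 bp upstream, in an intron of the longer transcripts. The TSS at 105676129 had a peak (chr2:105676134-105676632) 254 bp downstream, in the 5′ untranslated part of exon 1 of 13. The internal TSS at 105682463, the most downstream of the 4, had a peak on each side, 162 bp upstream (chr2:105682052-105682550) and 465 bp downstream (chr2:105682679-105683177). The outermost TSS, at 105668896, had none within 500 bp. A peak 1176 bp upstream of it (chr2:105667471-105667969) lay in intron 1 of 3 of Pax6os1, the antisense transcript. Of 21000 protein-coding genes, 11 had 4 or more promoter peaks named after them (0.0524%), although a gene with 1 TSS has less room for them than Pax6.

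The other 2 peaks of Pax6 were farther inside and beyond the gene. The first (chr2:105687493-105687991) lay in intron 5 of 10 of a transcript from the internal TSS, 5279 bp from the internal TSS. The second (chr2:105769708-105770206) was 87494 bp downstream of that TSS, in intron 9 of 9 of Elp4, a subunit of the Elongator complex whose introns are known to carry enhancers of Pax6. It was the peak with the least G and C of the 19, at 34.1%.

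Neurog2, a proneural basic helix-loop-helix gene (Entrez 11924), lies on the plus strand of chromosome 3 and had 5 peaks. Its promoter peak (chr3:127633249-127633747) was centred 362 bp downstream of the TSS, in the only intron, and was annotated to a CpG island. The second, 1132 bp downstream (chr3:127634019-127634517), lay in the coding part of exon 2 of 2. The remaining 3 were intergenic, at 7670 bp upstream on a CpG island (chr3:127625217-127625715), 4126 bp upstream (chr3:127628761-127629259) and 6904 bp downstream (chr3:127639791-127640289). The next closest peak was 60363 bp upstream, in Zgrf1. The peaks of Neurog2 thus formed a compact group around the gene, with gaps between centres of 770 to 5772 bp.

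**Figure D1:**
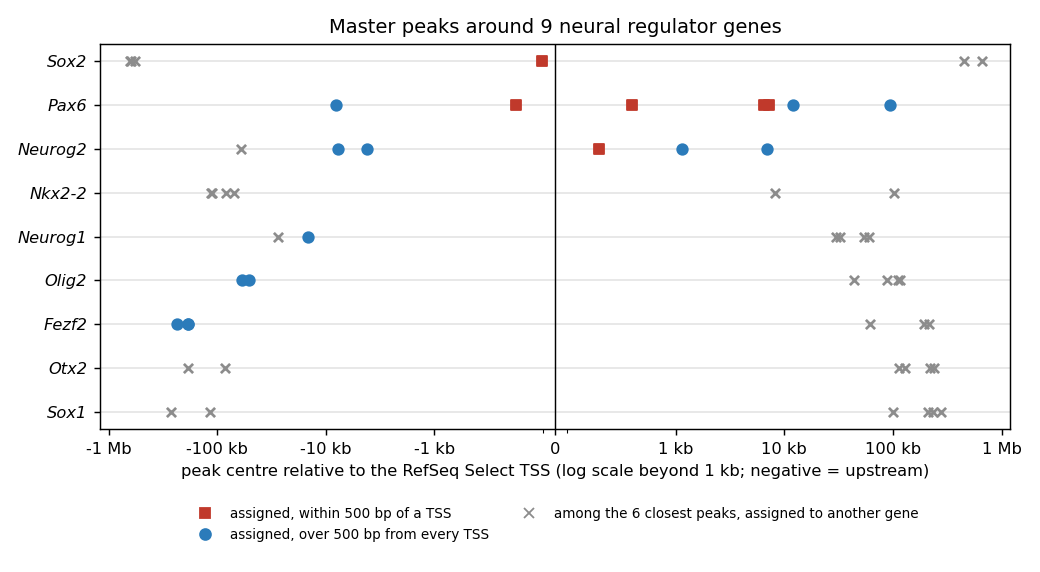
Position of master peaks around the 9 genes, with the distance of each peak centre from the RefSeq Select TSS on the x axis (linear within 1 kb, log scale beyond) and 1 line per gene, ordered by the distance from any curated TSS to the nearest peak. Red squares are assigned peaks within 500 bp of a TSS, blue circles other assigned peaks and grey crosses those of the 6 closest peaks that were assigned to another gene. Red squares stand at Sox2, Pax6 and Neurog2 alone, and the nearest peaks of Otx2 and Sox1 lie 84785 and 99255 bp away.

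The other 6 genes had no peak at a TSS, and their nearest peaks lay from 8288 to 99255 bp away. Fezf2 (Entrez 54713, minus strand of chromosome 14) was the unexpressed control gene of the study. The study also showed its TSS as an example without ATAC-seq signal in any of the cell types. The 3 peaks named after Fezf2 were 184544, 185460 and 231748 bp upstream, all in introns of Cadps, a gene of regulated vesicle release. The farthest was annotated to an MTEb repeat, an ERVL-MaLR long terminal repeat. A closer peak, 61428 bp downstream, was assigned to 3830406C13Rik. The peaks carry the name of Fezf2 because its TSS was the nearest, and nothing in the list ties them to it otherwise.

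For Sox1 (Entrez 20664, chromosome 8), the nearest centre was 99255 bp downstream and assigned to Spaca7. On the upstream side the nearest was at 115818 bp and assigned to Sox1ot, the non-coding RNA that overlaps Sox1. For Otx2 (Entrez 18424, chromosome 14), a homeodomain gene with 4 curated TSSs, the nearest peak (chr14:48752180-48752678) was 84785 bp upstream of the RefSeq Select TSS, in an intron of the non-coding gene Otx2os1, and was assigned to Gm48909. For Nkx2-2 (Entrez 18088, chromosome 2), a homeodomain gene, a peak lay inside the gene itself. It was in intron 2 of 2 of the longer transcript (chr2:147177865-147178363), 8288 bp downstream of the TSS, but the list names it after Nkx2-2os, whose TSS is closer. The row of Nkx2-2 is therefore empty by assignment and not by position. Assignment matters for Sox1 and Otx2 as well. By the nearest protein-coding TSS, Sox1 had 2 peaks, Otx2 had 2 and Nkx2-2 had 3.

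Olig2 (Entrez 50913, plus strand of chromosome 16), a basic helix-loop-helix gene, had intergenic peaks 51395 and 58476 bp upstream (chr16:91173906-91174404 and chr16:91166825-91167323). Its nearest peak was on the other side, 44099 bp downstream at the promoter of its paralog Olig1. Olig2 and Olig1 thus differed, with no peak at the TSS of the first and a promoter peak at the second. Neurog1 (Entrez 18014, minus strand of chromosome 13) had a single intergenic peak (chr13:56266389-56266887), centred 14475 bp upstream by the distance column and 14458 bp from the curated TSS. Neurog1 and Neurog2, close paralogs, differed in the same way, with 0 and 1 promoter peaks.

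Across all 21000 protein-coding genes with curated RefSeq transcripts, 12670 had a peak centre within 500 bp of a TSS (60.3%, with 59.7 to 61.0% as the 95% Wilson interval for counting error alone). The 3 of 9 neural regulators amounted to 33.3% (interval 12.1 to 64.6%). Lists of genes set beside them gave 14 of 50 for other neural regulators, 6 of 30 for regulators of muscle, heart, gut and other non-blood tissues, 27 of 30 for regulators of blood cells and 27 of 30 for subunits of the Polycomb and Trithorax complexes, general regulators of chromatin. At least 1 peak was named after 6 of the 9 genes, against 75.5% of all genes, and the median number was 1 against 2. Counts by name matched gene symbols, so they may be too low for genes that the list gives under another symbol. The interval of the 9 genes includes the share of all genes, and no test between gene lists was made.

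**Figure D2:**
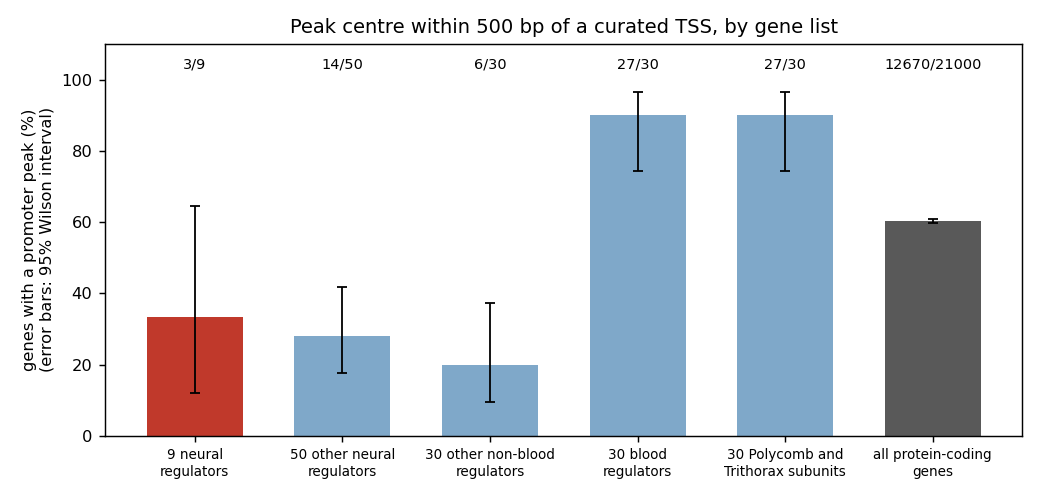
Percentage of genes with a peak centre within 500 bp of any curated TSS, for the 9 neural regulators (red), 4 other gene lists (blue) and all 21000 protein-coding genes (grey), with counts above the bars and 95% Wilson intervals as error bars. The 9 genes, at 33.3%, stand with the other neural and non-blood lists (14 of 50 and 6 of 30) and below the blood list and the complex subunits (27 of 30 each).

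The promoters were then sorted by CpG content in the 500 bp on each side of the RefSeq Select TSS. CpG-rich promoters, with observed/expected over 0.75 and over 55% G and C, had a peak in 5289 of 5888 genes (89.8%). Intermediate promoters had a peak in 80.8% and CpG-poor promoters, with observed/expected under 0.48, in 20.8%. None of the 9 neural genes was CpG-poor. Fezf2, Sox1, Sox2, Neurog1 and Neurog2 were CpG-rich, and of these 5 only Sox2 and Neurog2 had a peak. Pax6, Olig2, Nkx2-2 and Otx2 were intermediate, and of these 4 only Pax6 had a peak. Another Pax6 TSS, at 105676129, was CpG-rich (observed/expected 0.85, 59.2% G and C) and had a peak, but these counts use the Select TSS. Fezf2, Sox1 and Neurog1 were thus among the 599 CpG-rich promoters (10.2%) without a peak. The same counts were 8 of 23 CpG-rich promoters for the other neural regulators and 1 of 8 for the non-blood list, against 8 of 10 for blood regulators and 20 of 21 for the complex subunits.

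**Figure D3:**
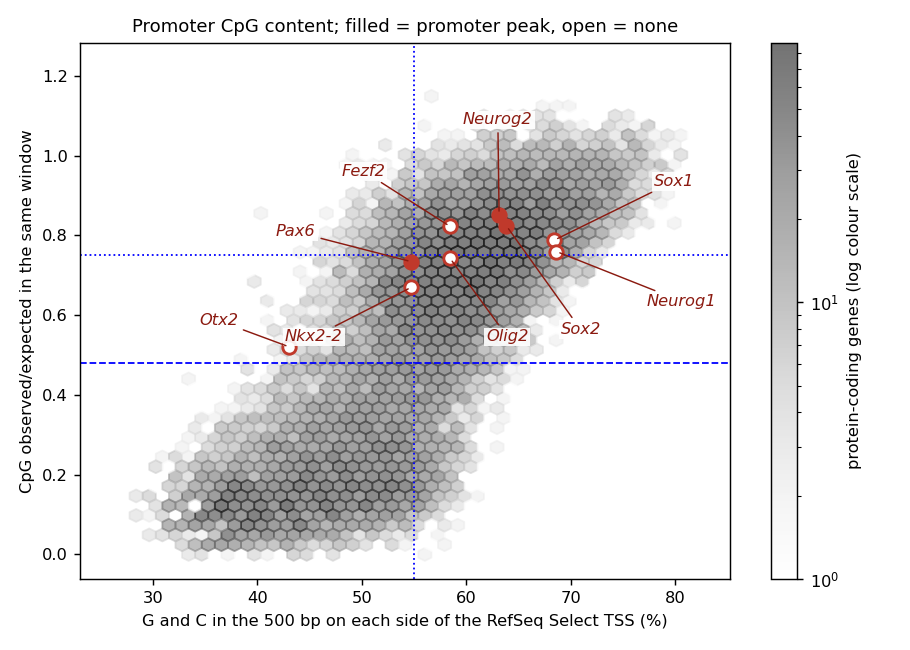
CpG observed/expected (y axis) against the percentage of G and C (x axis) in the 500 bp on each side of the RefSeq Select TSS, with all 21000 protein-coding genes as grey hexagons (log colour scale) and the 9 neural regulators as circles, filled where the gene had a promoter peak. Dotted lines mark 0.75 and 55%, and the dashed line marks 0.48. Filled and open circles are mixed, with Sox2 (0.82 and 63.8%) and Neurog2 (0.85 and 63.1%) near Fezf2 (0.82 and 58.4%), Sox1 (0.79 and 68.4%) and Neurog1 (0.76 and 68.6%).

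Many of the 9 genes lie in long islands. Island sequence was measured as the run of 200 bp windows with at least 50% G and C and observed/expected of at least 0.6 over the TSS, a measure added after the promoter counts were known. Olig2 had 3130 bp, Sox1 had 2899 bp, Neurog2 had 2591 bp and Sox2 had 2279 bp, which is the 99.8, 99.6, 99.2 and 98.4 percentile of protein-coding genes. Neurog1 had 1456 bp, Fezf2 had 1276 bp and Nkx2-2 had 1156 bp, and the Select TSSs of Pax6 and Otx2 lay outside such a run. Among all CpG-rich promoters, the share with a peak was 93.2% where the island was under 1000 bp, 90.8% from 1000 bp to under 2000 bp, 73.3% from 2000 bp to under 3000 bp and 68.0% from 3000 bp up. Sox2 and Neurog2 had a peak and Sox1 had none within the same class of length, the 434 promoters from 2000 bp to under 3000 bp.

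**Figure D4:**
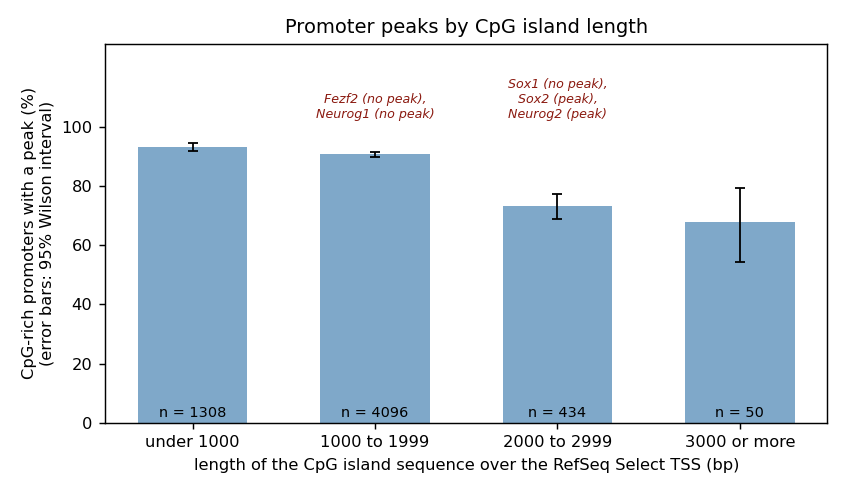
Percentage of CpG-rich promoters with a peak (y axis) by the length of the CpG island sequence over the RefSeq Select TSS (x axis), with 95% Wilson intervals as error bars, the number of promoters at the foot of each bar and the 5 CpG-rich neural regulators named above their class. The share falls from 93.2% to 68.0% with length, and Sox1, Sox2 and Neurog2 share the class at 73.3%.

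The promoter peaks of Sox2, Pax6 and Neurog2 sat to the side of the TSS. The 6 peaks were centred 105, 162, 254, 322, 362 and 465 bp from the nearest TSS, with a median of 288 bp, against a median of 67 bp for all 13171 promoter peaks of the list. Of the 6 peaks, 4 belonged to Pax6, with a pair on either side of the same TSS, so they are not independent. The closest centre was 105 bp away at Sox2, 162 bp at Pax6 and 362 bp at Neurog2. None of the 6 was within 100 bp, a distance that held 61.4% of all promoter peaks. The list keeps only non-overlapping peaks, for all genes alike, so a call dropped for overlap may have been centred elsewhere. At the level of genes, 0 of the 9 had a centre within 100 bp, against 8013 of the 21000 protein-coding genes (38.2%), and only 3 of the 9 had a promoter peak at all. Such a centre was found at 9 of the 50 other neural regulators, 14 of which had a promoter peak, and at 2 of 30 non-blood regulators, 15 of 30 blood regulators and 17 of 30 complex subunits. Promoter peaks were 6 of the 19 peaks of these genes, and 15.6% of all peaks in the list.

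CpG island annotation of the peaks was limited by the way HOMER orders its classes. The island class occurred only in peaks annotated as intron or intergenic, so a peak called promoter, exon or untranslated region could not carry it. It was given to 1861 peaks, 2.21% of the list and 2.79% of intron and intergenic peaks. Of the 19 peaks, 2 had it, both at Neurog2. By the sequence of the whole peak, with at least 50% G and C and observed/expected of at least 0.6, 8 of the 19 were island sequence, against 15.0% of all peaks. These were 4 of the 5 Neurog2 peaks, 3 of the 4 Pax6 promoter peaks and the Sox2 peak. The observed/expected value reached 0.96 at the Neurog2 promoter peak and 0.95 at the Pax6 peak 254 bp downstream of its TSS. At the 3 Fezf2 peaks it was 0.34, 0.04 and 0.07, and at the 2 Olig2 peaks 0.09 and 0.15, where the median of all peaks was 0.25. The Neurog1 peak had 0.31. Peaks of island sequence were found at Sox2, Pax6 and Neurog2 alone, and most of them were the promoter peaks themselves. Neurog1, Fezf2 and Olig2 had no promoter peak to compare. Promoter peaks were also 6 of the 19, against 15.6% of all peaks, so the 2 shares of island sequence are not on equal terms.

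The number of peaks around these genes varied. Within 100 kb of the TSS on each side, Fezf2, Sox1, Sox2 and Otx2 had 1 peak each, Nkx2-2 had 3, Olig2 had 4, Pax6 had 7, Neurog2 had 9 and Neurog1 had 14. The median was 3, against 12 for all protein-coding genes, 6 for the other neural regulators, 7 for the non-blood list, 21 for blood regulators and 19.5 for the complex subunits. Of all genes, 13.4% had 1 peak or none. Neurog1 alone was above the median of all genes, and its neighbour Tifab, whose TSS is 73295 bp away, has 10 peaks named after it. Within 250 kb the order changed. Olig2 then had 49 peaks (the 86.3 percentile of all genes, ties at their middle) on a segment that includes Ifnar2, a subunit of the interferon receptor with 11 peaks. Neurog2 had 33, at the 60.3 percentile, and Neurog1 had 23, at the 39.9 percentile. Sox1 had 4, Fezf2 and Otx2 had 7 each, Pax6 had 10 and Nkx2-2 had 12, all at or below the 21.1 percentile. Sox2 still had 1, at the 6.44 percentile.

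**Figure D5:**
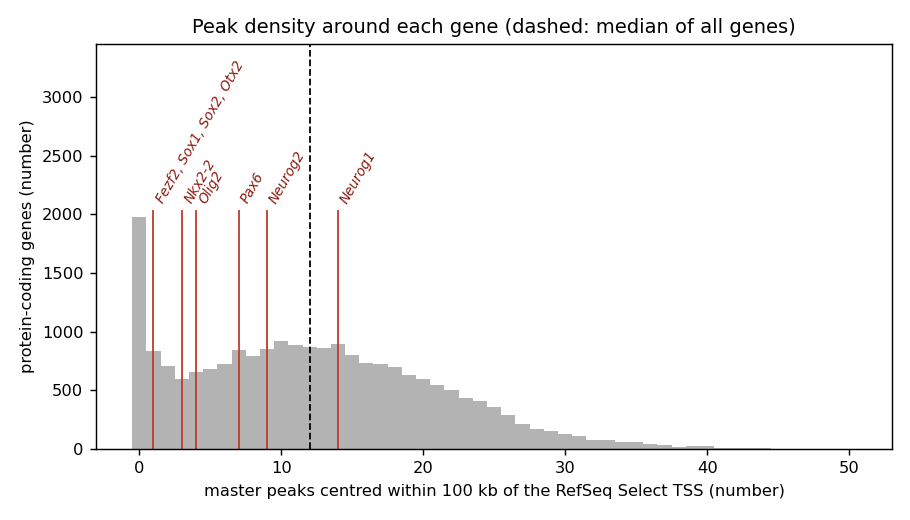
Number of protein-coding genes (y axis) by the number of master peaks centred within 100 kb of the RefSeq Select TSS (x axis). Red lines mark the 9 neural regulators and the dashed line the median of all genes, 12. The lines of 8 of the 9 genes lie to the left of the dashed line, and that of Neurog1, at 14, to its right.

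The sequence of the 19 peaks was searched on both strands for 8 short consensus strings without mismatches. GATA factors were represented by AGATAA, ETS factors by AGGAAG, RUNX factors by TGTGGT, AP-1 and NF-E2 by TGACTCA, SOX factors by CATTGT, homeodomain factors by TAATTA, and E-box factors by CAGCTG or by CACGTG. No match overlapped one of another family. ETS matches occurred in 12 of the 19 peaks, where 62.4% of all peaks had one. RUNX matches occurred in 9 of 19 (all peaks 38.9%), SOX in 7 (20.5%), CAGCTG in 4 (29.8%), GATA in 3 (24.1%), TAATTA in 2 (8.70%), and TGACTCA and CACGTG in 1 each (10.8% and 9.26%). RUNX and SOX matches were mostly outside promoters, in 8 and 6 of the 13 other peaks, against 42.5% and 22.5% of all peaks outside promoters. Short strings recur by composition, so a match is a description of the DNA and no evidence that a factor binds.

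Stretches of 2 distal peaks are printed here, the first because its peak held the most matches of the 19 and the second because it lies on a repeat and holds the only TGACTCA. Matches to any of the 8 strings are in capitals on the plus strand of mm10. The first is from the Olig2 peak 51395 bp upstream (chr16:91173940-91174239) and the second from the Fezf2 peak on the MTEb repeat (chr14:12577425-12577724).
Olig2 distal: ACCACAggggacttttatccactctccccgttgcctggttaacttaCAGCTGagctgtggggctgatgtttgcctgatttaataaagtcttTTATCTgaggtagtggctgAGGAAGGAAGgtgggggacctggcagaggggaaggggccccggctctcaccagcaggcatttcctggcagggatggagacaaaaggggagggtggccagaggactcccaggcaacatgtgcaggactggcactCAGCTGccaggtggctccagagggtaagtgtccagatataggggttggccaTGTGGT
Fezf2 distal: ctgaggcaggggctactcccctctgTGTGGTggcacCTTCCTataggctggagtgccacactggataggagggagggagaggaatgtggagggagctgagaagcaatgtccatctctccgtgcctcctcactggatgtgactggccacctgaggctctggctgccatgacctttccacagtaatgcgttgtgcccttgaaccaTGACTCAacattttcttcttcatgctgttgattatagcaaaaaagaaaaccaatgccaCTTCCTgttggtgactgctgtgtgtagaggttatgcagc
The Olig2 stretch held 7 matches, which were 1 GATA, 2 ETS that overlap each other, 2 RUNX and 2 CAGCTG. The Fezf2 stretch held 4, which were 1 RUNX, 2 ETS and 1 TGACTCA whose midpoint was 18 bp from the peak centre. Of the promoter peaks, that of Sox2 held 1 match, an ETS string. The Pax6 peak 465 bp downstream of the internal TSS held 1 GATA, 1 ETS, 3 RUNX and 1 SOX match. That of Neurog2 held 1 ETS and 1 CAGCTG match, and the Pax6 peak 322 bp upstream of the Select TSS held 1 ETS match. The other promoter peaks of Pax6 held none.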

How the data were processed

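ATAC-seq peaks of 12 samples, 2 replicates of 6 blood cell types, were analyzed as 1 deposited table. The authors aligned reads to mm10 and found peaks with an ENCODE workflow, concatenated the optimal IDR peak-lists of the cell types, reduced them to non-overlapping peaks with chromVAR and annotated them with HOMER (4.10.2 per the labels). The values deposited by the authors are positions and distances in bp, without normalization, and a peak score that is 0 throughout. Depth is unknown and 0 columns hold values per sample.

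Rows were taken by Gene Name. TSSs, gene classes and sequence came from RefSeq release 108 of GRCm38.p6, the assembly of mm10, in which no peak passed a chromosome end. The promoter sequences of RefSeq equalled the genome for all 9 genes. Distances agreed within 2 bp with curated TSSs for 18 of the 19 peaks. The 9 genes and the lists were chosen with earlier results of these data known. All 9 genes are named, with neighbours at their peaks, and in other lists up to 5 genes with the most peaks, of which 1 gene is not reported here. Intervals are 95% Wilson intervals. The search and distances were tested on simulated data. Software was Python 3.11.15, numpy 2.4.6, pandas 2.3.3 and matplotlib 3.10.9.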

Additional observations from a re-analysis of the deposited data

How the results depend on the processing

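The 3 genes with a promoter peak stayed 3 with a 1000 bp limit, with any curated or the Select TSS, and with any base of the peak inside 500 bp. They became 2 (Pax6 and Sox2) from 1000 bp upstream to 100 bp downstream, where promoter peaks fell from 6 to 3, and 0 genes and 0 peaks within 100 bp. Peaks assigned rose from 19 to 29 by the nearest protein-coding TSS, to 61 by basal plus extension domains and to 24 with overlapping non-coding genes. By the nearest protein-coding TSS, Sox1, Nkx2-2 and Otx2 had 2, 3 and 2 peaks. The number of genes with a peak thus depends on the naming rule, and the share of all genes was counted by name only. CpG island peaks rose from 2 to 8 by sequence. The share of all genes with a promoter peak, 60.3%, was 53.7% with non-coding genes included, 38.2% within 100 bp and 63.5% within 1000 bp. That of CpG-rich promoters, 89.8%, was 88.0% for the looser class (3 of 8 neural genes), 52.6% within 100 bp and 92.7% within 1000 bp. Motif matches in the 19 peaks went from 48 to 585 with 1 mismatch and to 13 in the central 200 bp. The settings differ in width, in the assignment rule or in the genes counted, and the cause of these shifts was not tested. The median percentile of peak number around the genes was 18.2 for 100 kb, 16.5 for 50 kb and 18.1 for 250 kb. No paired analysis was possible because the list pools replicates and cell types, and no replicate could be left out.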

Other observations

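Among the 50 other neural regulators, those with the most peaks named after them were Dbx1 (17), Gbx2 (13), Irx3 (11), Lmx1a (9) and Insm1 (8), of which Gbx2 and Insm1 had a promoter peak. Among regulators of other non-blood tissues they were Foxc1 (11) and Foxa2 (10), both with a promoter peak, and Hand1 (8), Pitx1 (5) and Sox17 (5), without. A large number of assigned peaks thus occurred with and without a peak at the TSS in both lists. For comparison, the blood regulators Bcl11a, Fli1, Runx1, Erg and Runx3 had 40, 38, 35, 29 and 23, each with a promoter peak, and the subunits Aebp2, Jarid2, Kdm2b and Cbx7 had 28, 20, 11 and 9, likewise.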
